A study of Arabidopsis thaliana with 40 samples.

Results

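This report describes the transposable elements for which sense transcripts were detected in unopened flower buds of *Arabidopsis thaliana*. They were chosen by their mean abundance in total RNA: an element belongs to the set when its log2 CPM (log2 of reads counted on it, scaled to a common library size) in the sense table of *rdr1* lies above the lowest value of that table. The rule found 1150 of 31189 annotated elements, and the other 30039 sat at the minimum. That mean is shared by the tables of 7 mutants, so it selects elements read in any of these libraries and not elements that differ between genotypes. The lowest 103 members had a log2 CPM of -1.81, against -1.85 for the elements left out. The median member also had -1.81 and the highest had 3.49. Members made up between 3.48% and 3.85% of the elements of each of the 5 chromosomes.

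Total RNA and small RNAs (smRNAs) were sequenced from Columbia-0 (Col-0), the wild type, and from *rdr1-1*, *rdr2-1*, *rdr3-1*, *rdr4-1*, *rdr5-1*, *rdr6-11*, *sgs3-11* and *rdm12-1*. All plants were untreated and their whole buds were taken at 30 days, with 2 libraries per genotype and assay. Every mutant but *rdr3* was compared with the same 2 Col-0 libraries, so an error of those libraries enters all 7 comparisons, and *rdr3* was compared with 2 Col-0 libraries of its own. Each mutant was represented by 1 allele, and the p-values measure only the spread between 2 libraries per group.

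Transposable elements are mobile DNA that plants keep largely untranscribed. In RNA-directed DNA methylation, RNA polymerase IV transcribes an element, RDR2 copies the transcript into double-stranded RNA, DCL3 cuts it into short interfering RNAs, and AGO4 with these RNAs guides DNA methylation to the locus. RDR6 with its partner SGS3 copies other transcripts, among them the precursors of trans-acting siRNAs. RDM12 is a double-stranded RNA binding protein of the methylation pathway, and the functions of RDR3, RDR4 and RDR5 are little known.

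As a check of the labels, the transcript of each mutated gene was read first. In the authors' deposited edgeR tables the log2 fold change was -2.03 for *RDR1* in *rdr1*, -4.48 for *RDR2* in *rdr2*, -2.08 for *RDR6* in *rdr6* and -1.41 for *SGS3* in *sgs3*, each with an FDR (adjusted p-value) between 6.7e-05 and 0.0037. *RDR4* had -2.76 in *rdr4*, *RDR5* 0.87 in *rdr5* and *RDR3* 0.14 in *rdr3*, all with an edgeR FDR of 1. *RDM12* was not lower but higher, by 1.04 on the log2 scale, where the label is *rdm12* (edgeR FDR 1.6e-06). Where in the gene these reads lie was not examined, so this value alone does not decide whether the label holds. *RDR3* and *RDR5* were not lower in their mutants and *RDR4* was not called, so *rdr3*, *rdr4* and *rdr5* are named here by their labels alone, and every direction given for them rests on those labels.

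Most members rested on very few reads. In the low range the log2 CPM values form steps, and the step of 1 read was worth 0.00773 CPM over all libraries. Read in these steps, 760 of 1150 members (66.1%) had 1 sense read in all total RNA libraries together. A further 170 had 2 reads, 110 had 3 to 4, 65 had 5 to 9, 38 had 10 to 99, and 7 had 100 or more. Among 23961 genes with at least 1 sense read, only 5.82% had 1 read and 59.3% had 100 or more. The members therefore lie at the limit of what these libraries could show, and an element without a read cannot be called silent.

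**Figure D1:**
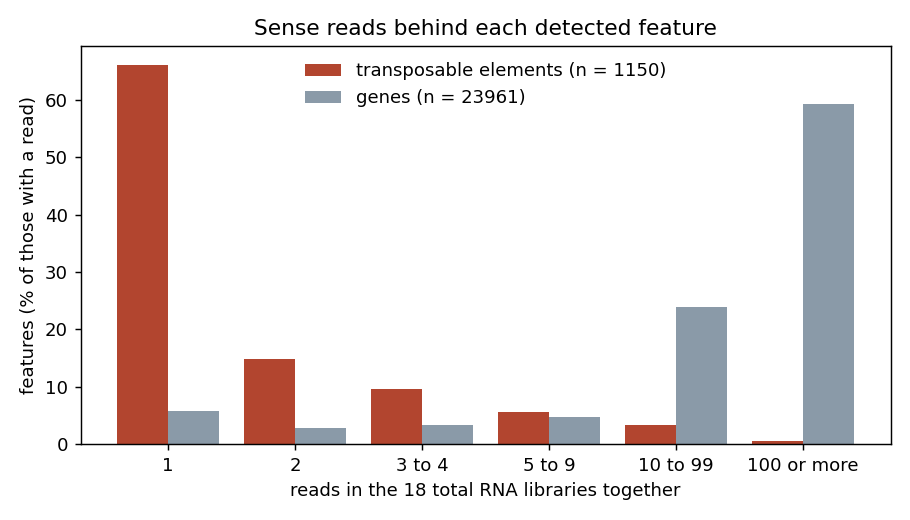
Share of detected features (vertical axis, percent) by number of sense reads in the total RNA libraries together (horizontal axis), for 1150 transposable elements and 23961 genes. Most elements (66.1%) had 1 read, while 59.3% of the genes had 100 or more.

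Values of 1 read formed 18 distinct levels, as many as there are libraries behind the mean. Of these, 16 belonged to the 8 genotypes compared, because the fold changes of such rows differ from 0 only in the tables of 1 mutant, or in all 7 for Col-0. The other 2 belonged to libraries that enter none of the comparisons used here. The lowest log2 CPM, read with a default prior count of 2 in edgeR, corresponds to a mean library of 7210000 reads, and the size of the step to 7190000. Of the summed CPM, 78.2% was reads mapped to several places, which were assigned to no feature, 17.1% fell in genes and 0.00386% in the members. Elements with near-identical copies could therefore be read only where their sequence differs.

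From the log2 fold changes of the 7 mutants the whole reads of 1140 members (99.1%) could be recovered in each genotype, as sums of its 2 libraries. The mutants had between 0.423 (*rdr4*) and 0.562 (libraries labelled *rdm12*) of the depth of Col-0. Of the 1140, 757 (66.4%) had reads in 1 genotype, 166 in 2, and 12 in all 8. For 66 members the reads lay only in the 2 libraries that were not compared. Members with 1 read numbered 103 and 44 in the 2 Col-0 libraries and between 11 and 59 in the libraries of the mutants, and replicates of 1 genotype differed widely, as in *sgs3* with 49 and 11.

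The reads were concentrated on a handful of elements. Of 5053 reads, 28% belonged to *AT5TE72200* with 1415 reads, and 50.4% to the 10 members with the most reads, while the 760 members with 1 read held 15%. Read numbers are not per length, since the lengths of the elements were not used here. The mean level of *AT5TE72200* was 10.2 CPM in Col-0, 10.3 in *rdr2*, *rdr6* and *sgs3*, 11 where the label is *rdm12*, 11.4 in *rdr4*, 11.7 in *rdr1* and 12.7 in *rdr5*. The levels of all genotypes lay close together, and its edgeR FDR was 1 in all 8 comparisons of sense total RNA. The element carried smRNAs as well (log2 CPM 3.55 sense and 2.42 antisense), which in *rdr2* had a log2 fold change of -2.03 on the sense strand (edgeR FDR 1.3e-10) beside a transcript change of 0.01. Its antisense smRNAs had 0.63 (edgeR FDR 0.021), but the antisense table of *rdr2* is on another scale, as given with the smRNA results. That value became -1.48 with the antisense table aligned to the sense table, and -4.08 when also centred on microRNA genes. At this element, fewer sense smRNAs went without a called change of the transcript.

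The next members in order were *AT4TE13950* with 244 reads, *AT2TE23870* with 155, *AT5TE72580* with 143, *AT4TE13930* with 135, *AT3TE43620* with 118, *AT1TE41795* with 117 and *AT5TE61030* with 99. *AT4TE30225* and *AT4TE21055* completed the 10 with 64 and 55 reads. *AT4TE13930* and *AT4TE13950* stand close in the order of identifiers. For *AT4TE13950* the level lay between 1.39 CPM (*rdr4*) and 2.48 CPM (*rdr6*), with 1.81 CPM in Col-0. *AT4TE13930* had 27 reads in Col-0, 18 in *rdr4* and where the label is *rdm12*, 17 in *rdr2*, 16 in *rdr6*, 13 in *rdr1* and *rdr5*, and 9 in *sgs3*. At the depth of Col-0, no genotype was more than 1.58-fold away from the 27 reads of Col-0.

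Most of these abundant members carried few smRNAs. The sense smRNA log2 CPM was -3.82 for *AT4TE13950*, -3.50 for *AT4TE13930*, -3.57 for *AT3TE43620*, -3.75 for *AT1TE41795*, -3.45 for *AT5TE61030* and -3.60 for *AT4TE30225*, where the lowest value of the table is -3.86. *AT5TE72580* had -2.76. *AT2TE23870* had -0.20 and was higher on the antisense strand, and *AT4TE21055* had 1.62 sense and 1.26 antisense. Both elements lay above the medians of the members on either strand. Of the 10 members with the most reads, only *AT5TE72200* and *AT4TE21055* thus had a sense smRNA level above 1 CPM.

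The mutants were then compared with Col-0. In sense total RNA, 1 member passed an edgeR FDR of 0.05 in *rdr2* and 0 in each of the other mutants. Over all features with a read, the calls in either direction amounted to 0.191% in *rdr2*. They were 0.37% in *rdr1*, 0.713% in *rdr4*, 0.342% in *rdr5* and 0.227% in *rdr6*, and 0.299% in *sgs3*, 0.0153% in *rdr3* and 0.0358% where the label is *rdm12*. With 1 call among 1150, the members' share in *rdr2* was below that of all features, and 1 read in 1 library cannot reach the threshold. At an unadjusted edgeR p under 0.05, 6 members were higher in *rdr2*, 2 each in *rdr1* and *sgs3*, and 1 each in *rdr5*, *rdr6* and the libraries labelled *rdm12*. Lower members at that level numbered 2 in *rdr2* and 1 in *sgs3*, and *rdr4* had 0 in either direction. The share of all features at that unadjusted level was not taken, so these counts cannot be set against it.

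The called element was *AT3TE47360*. It had 23 reads in *rdr2* and 0 in Col-0 and in each of the other 6 mutants, with about 4 more in the 2 libraries that were not compared. All its reads in the compared genotypes thus came from *rdr2*, so it entered the set through the mutant in which it is high. A count of 0 in Col-0 allows up to 3 reads, and at equal depth the reads of *rdr2* were 15.3-fold that limit. The counting error of the reads in *rdr2* is not in this value, so it is no lower bound. The log2 fold change in the authors' deposited table was 7.12 (edgeR FDR 5.1e-05). Its sense smRNAs, with a mean log2 CPM of 0.04, had a log2 fold change of -2.44 in *rdr2* (edgeR FDR 4.0e-06). It was the only member with smRNAs called decreased and transcripts called higher in the same mutant.

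Another 3 elements, chosen after their values had been seen, shared this pattern of reads without passing the FDR. *AT4TE08355* had 13 reads in *rdr2*, 1 in *rdr6* and 0 in Col-0 and the other 5 mutants. At equal depth its *rdr2* reads were 8.66-fold the same limit of 3 reads for Col-0 (log2 fold change 6.30, edgeR FDR 0.0836). The FDR became 0.0296 when only features with 2 reads or more were tested, a limit chosen after the data had been seen. Nearly all its compared reads came from *rdr2*, which also brought it into the set, so the lower value adds no support. *AT1TE58825* had 7 reads in *rdr2*, 1 in *rdr1* and 0 in the others of these genotypes, with 2 in the libraries that were not compared. *AT2TE78320* had 7 in *rdr2*, 1 in *rdr6* and 0 in Col-0, the other 5 mutants and the libraries that were not compared. The *rdr2* reads of both were 4.67-fold that limit at equal depth, with a log2 fold change of 5.43 and an edgeR FDR of 1. Counting error of the *rdr2* reads is not in these values. A further element, *AT1TE55920*, had 6 reads in *rdr2*, 1 in Col-0 and 1 in *rdr6* (edgeR FDR 1). By a rule of at least 5 reads and at least 80% of the reads of the 8 genotypes, 4 members were read almost only in *rdr2* and 0 in any other of these genotypes. That rule was not planned and uses the reads that chose the members, so the counts are a description without a test. In the total RNA of *rdr3* and its Col-0, outside these 8 genotypes, all 4 had sense reads. Log2 CPM there was -2.04 for *AT3TE47360*, 1.95 for *AT4TE08355*, -1.66 for *AT1TE58825* and -2.48 for *AT2TE78320*, against a lowest value of -2.83. Levels in that set followed smRNAs, as given below.

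In *rdr2*, sense smRNAs of these elements had a log2 fold change of -2.14 at *AT4TE08355* (edgeR FDR 1.1e-10), -2.08 at *AT1TE58825* (edgeR FDR 7.7e-05) and -2.50 at *AT1TE55920* (edgeR FDR 1.8e-17). *AT2TE78320* had few smRNAs (log2 CPM -2.47 sense and -2.58 antisense), with log2 fold changes in *rdr2* of 1.27 sense (edgeR FDR 0.778) and 3.41 antisense (edgeR FDR 9.2e-04). The antisense values of *AT4TE08355*, *AT1TE58825* and *AT1TE55920* were -0.88, 1.41 and -0.65. The scales of the *rdr2* smRNA tables are shifted, as given with the smRNA results. Centred on microRNA genes, the sense value of *AT2TE78320* became -1.32. Its antisense value became 1.30 with the antisense table aligned to the sense table, and -1.30 when also centred on microRNA genes. *AT4TE08355* was the richest of them in smRNAs, with a log2 CPM of 3.64 sense and 3.45 antisense.

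**Figure D2:**
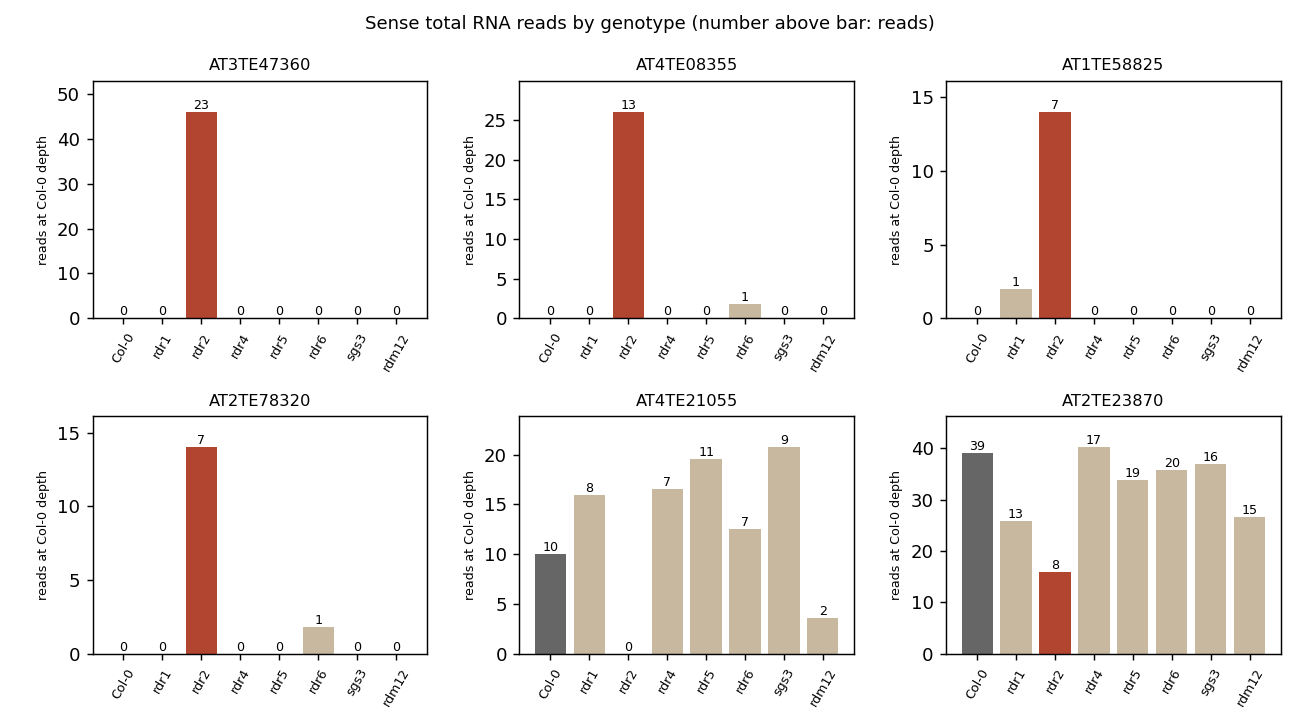
Sense total RNA reads of 6 members by genotype, scaled to the depth of Col-0 (bar height), with the recovered read number above each bar. In the first 4 panels nearly all reads are those of *rdr2* (23, 13, 7 and 7), whereas *AT4TE21055* had 0 reads in *rdr2* and *AT2TE23870* had 8 against 39 in Col-0.

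Other members went the opposite way in *rdr2*, also without passing the FDR. *AT4TE21055* had 10 reads in Col-0, 0 in *rdr2* and 2 where the label is *rdm12*, but 11 in *rdr5*, 9 in *sgs3*, 8 in *rdr1*, and 7 in *rdr4* and in *rdr6*. Its 10 reads in Col-0 were 1.67-fold the limit that a count of 0 in *rdr2* allows at equal depth (log2 fold change -4.94, edgeR FDR 1). The counting error of the Col-0 reads is not in this value. Sense smRNAs of *AT4TE21055* had a log2 fold change of -3.68 in *rdr2* (edgeR FDR 8.2e-23). *AT2TE23870* had 39 reads in Col-0 and 8 in *rdr2*, beside 13 in *rdr1*, 15 where the label is *rdm12*, 16 in *sgs3*, 17 in *rdr4*, 19 in *rdr5* and 20 in *rdr6*. It was 2.44-fold lower in *rdr2* at equal depth (log2 fold change -1.27, edgeR FDR 1). Sense smRNAs called decreased in *rdr2* were thus found beside more and beside fewer transcript reads.

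Some members of the other mutants passed only an unadjusted p under 0.05 and are named after their values had been seen. *AT5TE48460* had 10 reads in Col-0, 0 in *sgs3* and between 2 and 5 in the other mutants. *AT4TE42950* had 8 reads in Col-0 and 12 in *sgs3*, which is 3.46-fold higher at equal depth (log2 fold change 1.76). In *rdr1*, *AT5TE88180* had 5 reads against 0 in Col-0, and *AT3TE46170* had 5 against 1 (log2 fold changes 4.95 and 2.95). *AT4TE21090* had 8 reads in *rdr5* against 4 in Col-0 (log2 fold change 1.75), and *AT4TE21070* had 5 in the libraries labelled *rdm12* against 0. All of these had an edgeR FDR of 1.

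Some members were neighbours. In the order of identifiers, 223 members (19.4%) stood next to another member, in 103 runs. The longest held 5 elements, *AT4TE21055*, *AT4TE21060*, *AT4TE21065*, *AT4TE21070* and *AT4TE21075*, with 81 reads together. How many neighbours an even spread would give was not computed, and neighbours may not be independent of each other.

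Summed over the 1140 members, reads at the depth of Col-0 were 586 in Col-0 (exact 95% Poisson interval 540 to 635) and 726 in *rdr2* (653 to 804). They were 667 in *rdr6* (601 to 739), 641 in *rdr4* (567 to 722), 637 in *rdr1* (569 to 711), 618 in *sgs3* (546 to 697), 614 in *rdr5* (551 to 683) and 550 where the label is *rdm12* (490 to 615). These intervals cover counting error only, not the spread between libraries. The 10 members without recovered reads, *AT5TE72200* among them, are not in these sums and hold 39.4% of all reads of the members. They rest on the same reads that chose the members and are a description without a test. The highest sum was that of *rdr2*. Without the 4 elements read almost only in *rdr2*, *rdr2* had 626 reads (558 to 699). The 4 elements were picked by their reads in *rdr2*, so the lower sum follows from that choice and says nothing of the other members.

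**Figure D3:**
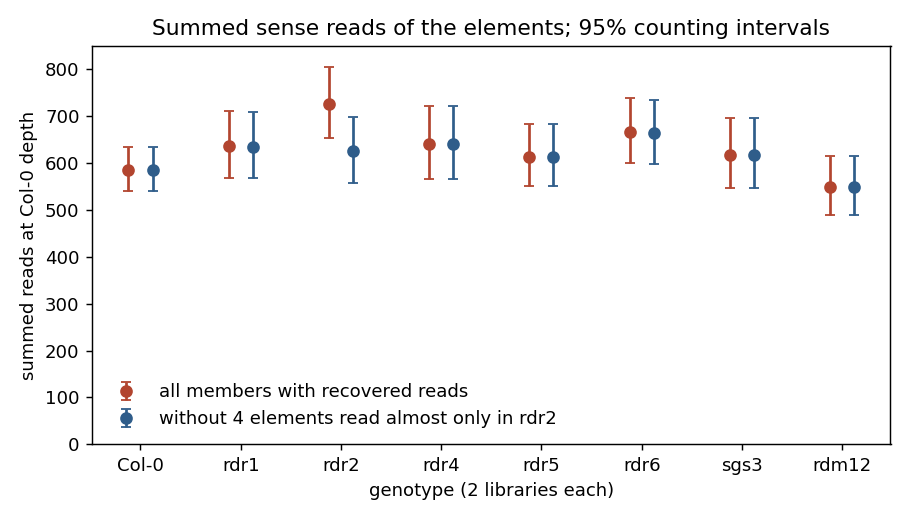
Summed sense reads of 1140 members by genotype, scaled to the depth of Col-0, with exact 95% Poisson intervals, for all of them and without 4 elements read almost only in *rdr2*. *rdr2* had 726 reads with these 4 and 626 without them, as follows from picking them by their *rdr2* reads.

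The same sums were taken over the 634 of these members whose sense smRNAs were called decreased in *rdr2*. They had 262 reads in Col-0 (95% interval 231 to 296) and 378 at equal depth in *rdr2* (326 to 436). Without the elements read almost only in *rdr2*, the value in *rdr2* was 292 (246 to 343). The 506 members without that call had 324 reads in Col-0 (290 to 361) and 348 at equal depth in *rdr2* (298 to 404). These sums too are a description, and the lower value without the *rdr2* elements follows from how those were picked.

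Antisense reads were found on 135 members (11.7%) and on 4.63% of the other transposable elements, and 54 members had more antisense than sense reads. The highest antisense level was that of *AT1TE17050*, with 1668 antisense reads against 1 sense read. *AT1TE37065* had 257 antisense and 5 sense reads, *AT2TE20735* 215 and 1, *AT4TE74230* 169 and 5, and *AT2TE25020* 120 and 4. *AT2TE23870* was read on both strands, with 107 antisense and 155 sense reads. The first 5 were chosen on 1 to 5 sense reads although they were read mainly on the other strand.

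In the antisense total RNA tables, 0 members passed an edgeR FDR of 0.05 in any mutant. Over all features read, 0.0269% were called in *rdr2*, 0.00723% in *rdr3*, 0.00896% in *rdr6* and 0% in each of the other 5 mutants. No share over all features was taken at an unadjusted edgeR p under 0.05. At that level there were 5 members in *rdr4*, 4 in *rdr3*, 2 in *rdr2*, 2 where the label is *rdm12* and 1 in *sgs3*. Among them was *AT1TE17050*, with a log2 fold change of -0.96 in *rdr2* (edgeR FDR 1), whose antisense smRNAs had 4.23 in that mutant (edgeR FDR 2.5e-24). That value became 2.11 with the antisense table aligned to the sense table, and -0.48 when also centred on microRNA genes.

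The total RNA libraries of *rdr3* and its Col-0, which the rule did not use, gave another picture. Sense reads were found there on 846 members (73.6%), on 12502 of the other transposable elements (41.6%) and on 76.8% of the genes. Members were thus read more often than other elements, none of which had a sense read in the libraries of the other mutants, by the rule. In the *rdr3* set the level of a member followed its smRNAs: across the 1150 members, Spearman's rho between sense total RNA and sense smRNA level was 0.93, against -0.08 in the libraries of the other 7 mutants, where most members are tied at 1 read and the level had chosen them. The relation was not particular to the members: rho was 0.87 in the *rdr3* set and 0.13 in the other over all transposable elements, and 0.79 and 0.57 over genes. These values are across features and are a description. Members in the lowest smRNA class (log2 CPM under -2) had reads in 36.6% of cases in the *rdr3* set, and members with a log2 CPM of 0 or more in 100%.

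microRNA genes were read in those libraries too. Of 178 microRNA genes, 29 had a log2 CPM of at least 2 in the sense total RNA of the *rdr3* set and 0 in that of the other 7 mutants. The 5 members richest in smRNAs show the difference: *AT3TE08290*, *AT3TE63215*, *AT4TE22770*, *AT3TE46555* and *AT2TE25320* had 1 sense read each in the 18 libraries, but a log2 CPM of 4.81, 5.39, 4.53, 3.84 and 4.43 in the *rdr3* set. What part small RNAs have in the reads of the *rdr3* set was not tested.

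**Figure D4:**
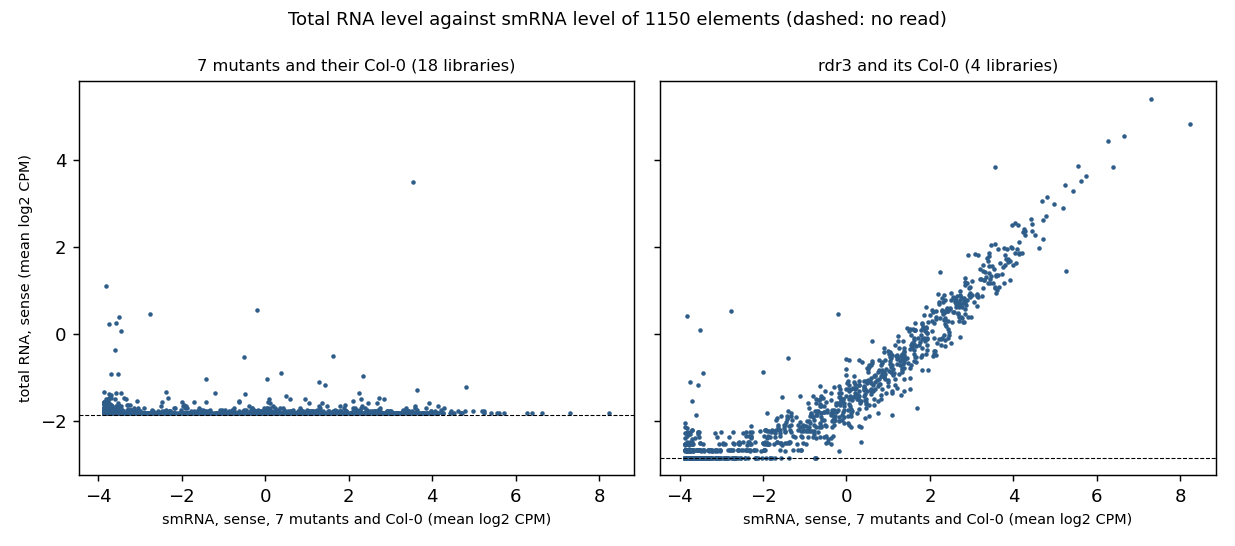
Sense total RNA level (vertical axis, mean log2 CPM) against sense smRNA level (horizontal axis, mean log2 CPM) of the 1150 members, for the libraries of 7 mutants and Col-0 (left) and for *rdr3* and its Col-0 (right). The dashed line marks an element without a read. The points follow the smRNA level only on the right (rho 0.93, against -0.08 on the left).

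In the *rdr3* comparison, 0 of 846 members passed the FDR in sense total RNA. At an unadjusted edgeR p under 0.05, 2 were higher and 15 lower, without a share over all features to set beside them. The median log2 fold change of the members was -0.51, that of the other transposable elements -0.54 and that of genes with a log2 CPM of at least 2 was 0.25. The members shared this lower median with transposable elements in general.

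smRNAs were found on most members. In the libraries of the 7 mutants and Col-0, 1076 members (93.6%) had sense and 1037 (90.2%) antisense smRNAs, against 73.5% and 73.9% of the other transposable elements, and 40 members had none on either strand. The median log2 CPM was -0.90 for members and -3.48 for other elements on the sense strand, and -1.56 and -3.75 on the antisense strand. Members with more transcript reads were not the ones with more smRNAs. The median sense smRNA log2 CPM was -0.71 for members with 1 read, -1.40 with 2 to 4, -3.51 with 5 to 9 and -2.33 with 10 or more.

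In *rdr2*, sense smRNAs were called decreased (log2 fold change of -0.58 or lower, edgeR FDR under 0.05) at 638 of the 1076 members with such smRNAs (59.3%). The share was 23.4% over all features and 41.4% over the other transposable elements. The higher share went with the higher smRNA level of the members. Between a log2 CPM of 0 and 2, 98% of the members and 99.6% of the other elements were called, and between -2 and 0 the shares were 79.7% and 85.1%. Under -2 the shares were 2.31% of 390 members and 4.9% of the other elements, with median log2 fold changes of 0.00 and -1.09. At equal smRNA level, members were therefore called no more often than other elements. The median log2 fold change was -2.56 for members (quartiles -3.09 and -0.22) and -2.33 for other elements. The *rdr2* table is on a shifted scale, since the median log2 fold change of 79 microRNA genes was 2.59 in it.

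On the antisense strand, 175 of 1037 members (16.9%) were called decreased in *rdr2*, beside 4.34% of all features and 6.46% of the other elements, with a median of -0.68 for the members. Shares at equal smRNA level were not taken on this strand. The antisense table is scaled differently from the sense table: over 793 transposable elements that reached a log2 CPM of 2 on either strand alike, its log2 fold changes were higher by 2.12 (median). Aligned to the sense table, a step added after the data had been seen, it gave 518 members, without a share over all features on that scale. Members called on both strands numbered 171, and 642 (55.8%) were called on at least 1 strand. The lowest log2 fold changes in *rdr2* were -7.38 for sense smRNAs of *AT1TE62470* and -6.94 for antisense smRNAs of *AT4TE03350*.

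In *rdr2*, 18 members had sense smRNAs called increased and 21 had antisense smRNAs called increased, beside 16.2% and 8.27% of all features. These counts did not hold on other scales, all added after the data had been seen. Centred on microRNA genes, 0 members were called increased in the sense table. The antisense count was 7 with that table aligned to the sense table and 1 with both steps. *AT3TE08290*, the member with the most smRNAs (log2 CPM 8.24 sense and 9.65 antisense), had log2 fold changes of 2.18 (edgeR FDR 5.4e-11) and 3.95 (edgeR FDR 5.8e-63). The sense value became -0.41 centred on microRNA genes. The antisense value became 1.83 aligned to the sense table and -0.76 with both steps. *AT1TE37065* had 2.97 sense (edgeR FDR 7.7e-04) and 4.88 antisense (edgeR FDR 4.0e-18). These became 0.38 centred on microRNA genes and 0.17 with both steps. The other 4 smRNA-rich members fell on both strands, with sense log2 fold changes between -3.04 (*AT3TE46555*) and -3.25 (*AT4TE22770*).

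In the other mutants few members lost smRNAs. Of the 1150 members, 1.39% were called on at least 1 strand in *sgs3* and 1.39% where the label is *rdm12*. In *rdr1*, *rdr3*, *rdr4*, *rdr5* and *rdr6* the share was between 0% and 0.435%. No share over all features was taken for both strands together. The percentages in brackets below are shares over all features of that strand, not of the members. Sense smRNAs were called decreased at 9 members where the label is *rdm12* (0.255% of all features), 4 in *sgs3* (0.201%), 3 in *rdr4* (0.0694%), 2 in *rdr1* (0.09%), 2 in *rdr6* (0.139%), 1 in *rdr5* (0.0863%) and 0 in *rdr3* (0.00262%). For antisense smRNAs the counts were 14 in *sgs3* (0.341%), 12 where the label is *rdm12* (0.347%), 2 in *rdr4* (0.0943%), 2 in *rdr6* (0.196%), 1 in *rdr1* (0.126%), 1 in *rdr5* (0.111%) and 0 in *rdr3* (0%). The sense counts depended on the scale. Centred on microRNA genes, they became 333 where the label is *rdm12*, 308 in *rdr1*, 226 in *sgs3*, 58 in *rdr4*, 7 in *rdr6* and 0 in *rdr5*. Centring moved every feature of a table by its microRNA median. That median was 0.81 where the label is *rdm12*, 0.74 in *rdr1*, 0.71 in *sgs3*, 0.64 in *rdr4*, 0.45 in *rdr6* and -0.30 in *rdr5*. The share over all features was not taken on that scale, so whether these counts are particular to the members cannot be told. In *rdr3*, where 0 were called in edgeR, 2 members in the sense table and 3 in the antisense table were lower at an unadjusted p under 0.05. No share over all features was taken at that level. The median log2 fold change of the members was between -0.08 and 0.13 in all of these tables. Of the sense smRNA CPM of the *rdr3* set, 97.7% was reads mapped to several places, against 76.1% in the other set. Transposable elements held 0.159% of it, against 2.55%, so the 0 calls in *rdr3* cannot be set beside the other counts as alike.

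**Figure D5:**
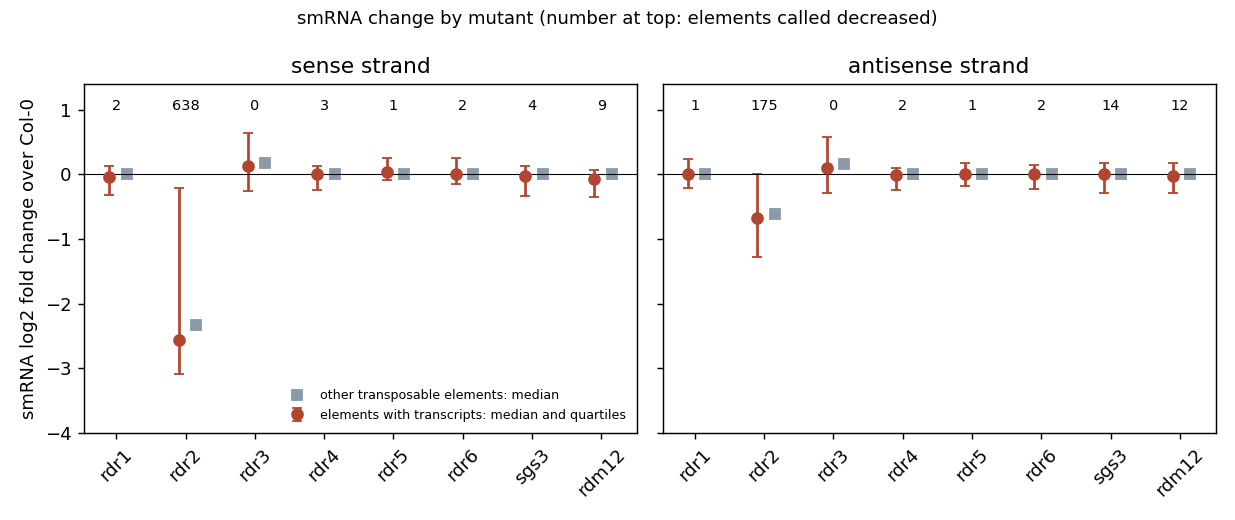
Log2 fold change of smRNAs over Col-0 (vertical axis) by mutant, as the median and quartiles of the members with smRNAs and the median of the other transposable elements, on each strand. The number at the top is the count of members called decreased. Only *rdr2* lies far below 0, with medians of -2.56 and -0.68 for the members.

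A few members lost smRNAs in several mutants, which share their Col-0 libraries. At *AT1TE27475*, which had 1 total RNA read, the sense log2 fold change was -3.97 in *rdr2*, -1.56 in *sgs3*, -1.44 where the label is *rdm12*, -1.22 in *rdr5* and -1.11 in *rdr6*, each with an edgeR FDR between 1.2e-23 and 0.00368. Sense smRNAs of *AT1TE27475* were also lower, without a call, in *rdr4* (-0.99, edgeR FDR 0.0665) and *rdr1* (-0.88, edgeR FDR 0.174). In all mutants that share these Col-0 libraries they were thus lower, while *rdr3*, with its own Col-0, had 0.44 and no call. The antisense values of *AT1TE27475* in *rdr5*, *sgs3* and the libraries labelled *rdm12* were -1.24, -1.47 and -1.53. *AT5TE52460* had -1.89 in *rdr1* (edgeR FDR 1.1e-07), -3.23 in *rdr2* and -1.22 in *sgs3* on the sense strand, and -1.07 in *rdr4* on the antisense strand (edgeR FDR 6.5e-07). *AT1TE40850*, at a low mean log2 CPM of -3.01, was called in *rdr1*, *rdr2*, *rdr4*, *sgs3* and the libraries labelled *rdm12* (edgeR FDR 0.00408 to 0.0394). It was not called in *rdr5* and *rdr6*, with log2 fold changes of -1.10 and -2.48. Its fitted values of -6.02 to -6.23 outside *rdr2*, like those beyond -6 of other members with few smRNAs, depend on the prior count and measure no fold.

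Others were called in fewer mutants. *AT4TE04915* had -1.31 in *rdr4* (edgeR FDR 0.0257) and -1.62 in the libraries labelled *rdm12* (edgeR FDR 1.5e-04). *AT2TE06200* had -1.90 in *rdr6* (edgeR FDR 0.00192), and *AT4TE25370* -7.12 in the libraries labelled *rdm12* (edgeR FDR 1.1e-05). In sense total RNA these 3 members had 1 or 2 reads each, too few to show a change of their transcripts.

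All 34 listed genes of transposon silencing were transcribed in the buds. Apart from the mutated genes, 2 passed the FDR, both in *rdr2*: *NRPD1*, the largest subunit of RNA polymerase IV, rose (log2 fold change 1.45, edgeR FDR 8.3e-05), and *ROS1*, a DNA demethylase, fell (-3.15, edgeR FDR 9.5e-39). The floral organ identity genes were found for 6 of 6, with log2 CPM from -0.51 to 4.91, as were the 7 tapetum, 6 late pollen and 5 leaf genes of the marker lists, and the root gene *PYK10* had -0.85. Called marker genes were 2 tapetum genes higher in *rdr1*, 1 late pollen gene lower in each mutant except *rdr3* and where the label is *rdm12*, and 1 leaf gene higher in *rdr4*. In whole buds, fewer cells of a type and less RNA per cell cannot be told apart, and the part of such differences in the values of the members was not tested.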

How the data were processed

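The authors trimmed reads with cutadapt, mapped them to TAIR10 with TopHat, counted them by strand with HTSeq on annotated features, and ran edgeR for every mutant against its control (versions are not given in the sources used here). They deposited log2 fold changes with a mean log2 CPM, and p-values with their FDR, per the file headers. These are the authors' comparisons and hold no value per library, so neither replicate errors nor fits on fewer libraries can be had from them. They were used because nothing else describes the elements, and are credited to the deposited tables throughout. The 8 tables of genomic bins were not used, and no coordinates or sequences of the elements were used here.

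A feature was taken as detected above the table minimum by more than 1e-06. CPM above the minimum was divided by the step of 1 read. Fold changes were taken as log2((1 + u × reads in the mutant) / (1 + v × reads in Col-0)), with u and v from features with 1 read, and solved for whole reads within 0.1. The next best solution had to be 3 times further off, and the reads of 10 members stayed unsolved. For 97% of the members, all 7 mutants came within 0.02 of a whole number. Levels in CPM were solved for the 8 members with a mean log2 CPM of at least 0. Calls needed an FDR under 0.05 and, for smRNAs, a log2 fold change of -0.58 or lower (0.58 or higher for increases). On other scales, p-values were approximated from the shifted fold change and the normal deviate of the deposited p.

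Which Col-0 libraries served as controls of *rdr3* in total RNA is an inference, since control numbers and library numbers differ there. The elements named are the 10 with the highest sense and the 5 with the highest antisense total RNA, the 5 with the most smRNAs, those called in total RNA, and in each mutant the 2 with the lowest smRNA values among those called. Others are said to be named after their values were seen. The set, the lists and the tests were chosen with earlier results of these data known. The procedures were tested on simulated data. Python 3.11.15, pandas 2.3.3, NumPy 2.4.6, SciPy 1.17.1 and Matplotlib 3.10.9 were used.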

Additional observations from a re-analysis of the deposited data

Results flagged for a closer look

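Reads in the 2 total RNA libraries that enter none of the comparisons were recovered as the remainder of the summed reads, rounded to whole numbers. For 5 members without a read in Col-0 this remainder was 3 or 4. So few reads show no difference from Col-0, and none was tested. *AT3TE47360* had 4 such reads beside 23 in *rdr2*, and *AT4TE08355* had 3 beside 13 in *rdr2* and 1 in *rdr6*. *AT2TE78935* had 3 beside 3 in *rdr2*, *AT1TE06650* had 3 beside 1 in *rdr1* and 2 in the libraries labelled *rdm12*, and *AT5TE10380* had 3 beside 8 spread over the 7 mutants. The genotype of these libraries is not given by the tables.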

How the results depend on the processing

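Of 81 recomputed values, 53 stayed within 1.5 times. Most of these 53 were counts of 0 that stayed 0, so their number is no measure of stability. For the recomputed counts of calls, the share over all features was not taken. At an unadjusted p under 0.05, calls in sense total RNA numbered 17 in *rdr3*, 8 in *rdr2*, 3 in *sgs3*, 2 in *rdr1*, and 1 each in *rdr5*, *rdr6* and the libraries labelled *rdm12*, and in antisense total RNA 5 in *rdr4*, 4 in *rdr3*, 2 in *rdr2*, 1 in *sgs3* and 2 where the label is *rdm12*. With features of a log2 CPM of at least 0 only, *rdr2* had 0 sense calls, as *AT3TE47360* was not among them, and antisense smRNA decreases numbered 4 in *rdr1* and 4 in *rdr4*. With features of 2 reads or more, *rdr2* had 2 sense calls. Centred on microRNA genes, sense smRNA decreases numbered 333 where the label is *rdm12*, 308 in *rdr1*, 226 in *sgs3*, 58 in *rdr4*, 7 in *rdr6* and 0 in *rdr5*. The cause of these shifts was not tested. The *rdr2* antisense table centred on the sense table gave 518. Members called increased in *rdr2* fell from 18 to 0 in the sense table centred on microRNA genes, and from 21 antisense to 7 after alignment to the sense table and to 1 with both. Levels were solved for 1 member with a log2 CPM of at least 2 in place of 8. A margin of 0.1 left 47 members with antisense total RNA in place of 135. The alignment of the antisense table, the scales for increases and the limit of 2 reads were chosen after seeing the data. Centring antisense tables on microRNA genes was not run, as 0 of them reached a log2 CPM of 2. Leaving out replicates and a second normalization need values per library and were not run. No paired analysis was possible because the tables hold no values per library. Elements with 1 to 3 reads cannot show a difference between genotypes at this depth.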
